A study of Rattus norvegicus with 6 samples.

Results

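The miR-148/miR-152 family of the rat hypothalamic arcuate nucleus (ARC) consists of the mature miRNAs cut from 3 hairpins, miR-148a, miR-148b and miR-152. Its members were taken by name, as every row that begins with rno-miR-148a-, rno-miR-148b- or rno-miR-152-. This gave 6 of the 562 mature miRNAs listed in each library, namely rno-miR-148a-3p, rno-miR-148a-5p, rno-miR-148b-3p, rno-miR-148b-5p, rno-miR-152-3p and rno-miR-152-5p. ARC tissue of Sprague-Dawley rats aged 8 to 10 weeks was sequenced on Day 14 after surgery, in 3 libraries of sham-operated rats and 3 libraries of rats with chronic constriction injury of the infraorbital nerve (CCI-ION). In the CCI-ION group the left infraorbital nerve, a sensory branch of the trigeminal nerve, was tied with loose ligatures, and in the sham group the nerve was exposed in the same way and left untied. The comparison asks which miRNAs of the ARC differ in level in this model of trigeminal neuropathic pain. The labels do not tie libraries to single rats, so n counts libraries, and p-values measure only the spread between libraries. The study's legend to its heatmap of increased miRNAs gives 6 rats per group. How these rats relate to the 3 libraries of a group is not stated.

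In a miRNA hairpin the 5p and 3p arms are each cut out as a short RNA, and usually one of them is kept and guides the silencing complex to mRNAs. Pairing to a target depends mainly on the seed, bases 2 to 8 of the mature miRNA. Members with one seed can therefore act on overlapping sets of mRNAs, and the DNA methyltransferase gene Dnmt1 is a well-known target of the 3p arms of this family.

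The mature sequences of 5 of the 6 members, credited to RefSeq (assembly GRCr8), are shown 5′ to 3′ with the seed in capitals, since the seed is what unites the family. The 3p arms carried the same seed.
rno-miR-148a-3p: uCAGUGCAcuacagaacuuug
rno-miR-148b-3p: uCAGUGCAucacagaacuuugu
rno-miR-152-3p: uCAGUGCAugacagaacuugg
rno-miR-148a-5p: aAAGUUCUgagacacucugacuc
rno-miR-152-5p: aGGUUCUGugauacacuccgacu

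Counted from the 5′ end, with the base of the first miRNA named before the position, miR-148a-3p and miR-148b-3p differed at C9U and U10C over the 21 bases compared. The differences of miR-148a-3p from miR-152-3p were C9U, U10G and U20G, and those of miR-148b-3p from miR-152-3p were C10G and U20G. The seed of the 3p arms was found in 3 of the 512 listed miRNAs with a RefSeq sequence, which were the 3p members themselves. The seed of miR-148a-5p and that of miR-152-5p each occurred in 1 listed miRNA, so the 5p arms shown share no seed with each other or with the 3p arms.

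The hairpins are shown to place the arms, with the mature sequences of the same RefSeq table in capitals. Mir148a lies at chr4:81664431-81664527 on the minus strand, inside no annotated gene, and Mir148b at chr7:136299870-136299966 on the plus strand, inside Copz1. Mir152 lies on chromosome 10 on the plus strand, inside Copz2. Copz1 and Copz2 encode zeta subunits of the COPI vesicle coat, and both genes have the strand of the miRNA they hold.
Mir148a: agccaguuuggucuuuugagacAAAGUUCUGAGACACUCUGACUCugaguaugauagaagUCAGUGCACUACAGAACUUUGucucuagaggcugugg
Mir148b: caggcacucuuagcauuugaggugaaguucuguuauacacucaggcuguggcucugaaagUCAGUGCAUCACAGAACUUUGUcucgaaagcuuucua

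Every family member had a higher level in each CCI-ION library than in any sham library. The deposited value, called normalized count here, is the number of reads of a miRNA divided by a size factor of its library, and values of a group are given in the order of replicates 1, 2 and 3. The groups were tested on log2(normalized count + 1) by limma over 555 miRNAs, with the threshold set at an adjusted p of 0.05. By this test 4 of the 6 members passed as higher in CCI-ION rats and 0 as lower, whereas 3.42% of all miRNAs tested passed as higher and 6.85% in either direction. The 4 were both arms of the miR-148a and miR-152 hairpins, and neither arm of miR-148b passed. Arms of one hairpin are cut from the same RNA, so the 6 members are not independent of each other. The groups did not overlap, with CCI-ION higher, for 19.5% of all miRNAs tested. The median log2 fold change of the members was 0.91, and that of all miRNAs tested was -0.01. In these bulk libraries, more cells holding a miRNA and more of it per cell cannot be told apart.

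**Figure D1:**
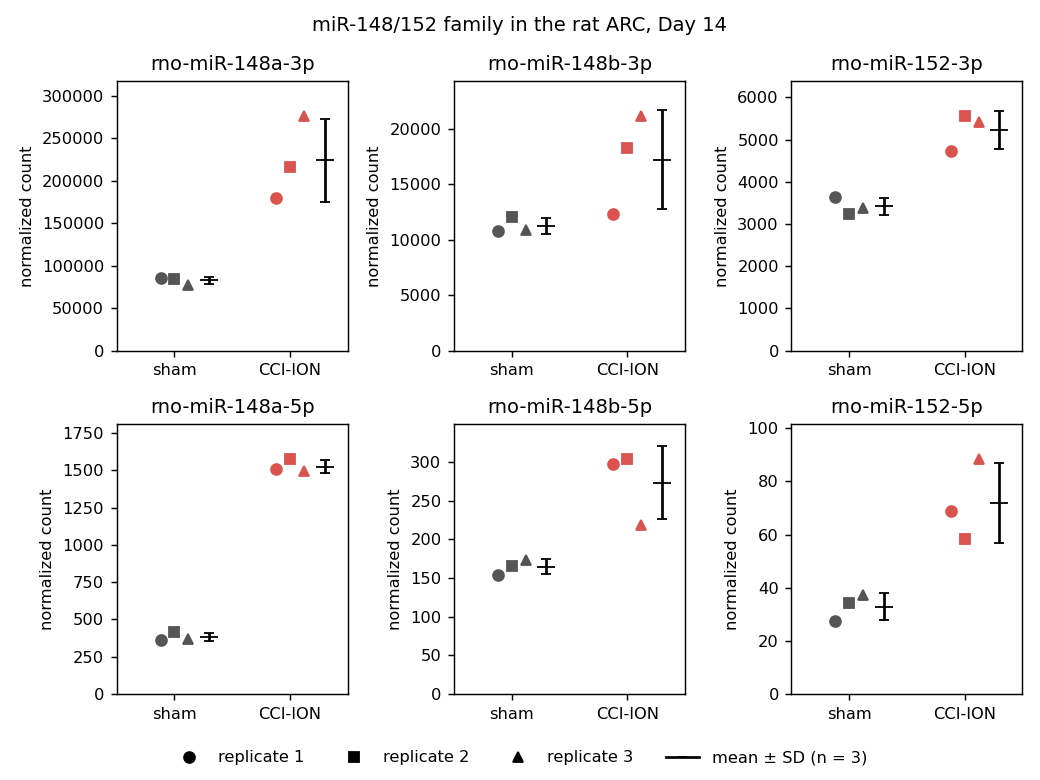
Normalized counts of the 6 members on linear axes from 0, with 1 point per library (grey for sham, red for CCI-ION, its shape giving the replicate) and a bar for the mean ± SD of 3 libraries. All 3 CCI-ION points lie above all 3 sham points in each panel, with the narrowest gap for miR-148b-3p (12058 against 12323).

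The 3p arms, which made up most of the family's reads, were ordered in the same way in every library. miR-148a-3p was the most abundant member, with sham values of 86016, 84252 and 77726 normalized counts. The CCI-ION values were 179225, 216482 and 275984 normalized counts, so that the CCI-ION libraries spread more widely than the sham libraries. By group mean it ranked 24 among the 562 miRNAs in the sham group and 14 in the CCI-ION group. Its mean rose from 82665 ± 4367 normalized counts in sham to 223897 ± 48804 in CCI-ION libraries (SD, n = 3 each). The log2 fold change was 1.42 (standard error 0.18, 95% interval 0.96 to 1.87, adjusted p = 0.019 from limma), or 2.67-fold. This call was lost without any one of the sham libraries, with an adjusted p of 0.0679, 0.0768 and 0.0797 from limma without sham replicates 1, 2 and 3, whereas the log2 fold change stayed between 1.37 and 1.45 in these fits. Over all 13 alternatives its adjusted p from limma ranged from 0.00223 to 0.0937.

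miR-148b-3p, the partner encoded in Copz1, had sham values of 10808, 12058 and 10885 normalized counts. Its CCI-ION values were 12323, 18237 and 21145, of which replicate 1 was just above the highest sham library. The group means were 11250.4 ± 700.5 and 17235 ± 4495 normalized counts (SD, n = 3 each). The log2 fold change of 0.58 (standard error 0.22, 95% interval 0.03 to 1.13) missed the threshold (adjusted p = 0.143 from limma). Leaving out CCI-ION replicate 1 gave a log2 fold change of 0.81, which passed (adjusted p = 0.0495 from limma), and over the 13 alternatives the adjusted p ranged from 0.0495 to 0.301.

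miR-152-3p, encoded in Copz2, had sham values of 3632, 3238 and 3388 normalized counts. Its CCI-ION values were 4718, 5554 and 5418, each clear of the sham range. The means of 3419 ± 199 and 5230.0 ± 448 normalized counts (SD, n = 3 each) gave a log2 fold change of 0.61 (standard error 0.12, 95% interval 0.31 to 0.91), which passed the threshold narrowly (adjusted p = 0.045 from limma). Only the fit without CCI-ION replicate 1 kept this call among those that left out a library (adjusted p = 0.0495 from limma). The adjusted p from limma was 0.107, 0.144 and 0.139 without sham replicates 1, 2 and 3 and 0.059 and 0.105 without CCI-ION replicates 2 and 3, within a range of 0.016 to 0.145 over the 13 alternatives.

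Of the 5p arms, which came from the same hairpins at far lower levels, miR-148a-5p changed the most. Its sham values of 365, 413 and 367 normalized counts stood against 1506, 1573 and 1494 in the CCI-ION libraries. Both groups were narrow and far apart, at 382 ± 27.3 and 1525 ± 42.5 normalized counts (SD, n = 3 each). The log2 fold change of 2.00 (standard error 0.11, 95% interval 1.73 to 2.27, adjusted p = 0.0017 from limma) was the fourth largest rise among the 555 miRNAs tested and had the smallest p of them. Its values rested on 319 to 497 reads in sham and 1292 to 1619 reads in CCI-ION libraries. This was the single member that passed the threshold in all 13 alternatives, with log2 fold changes from 1.75 to 2.20.

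miR-148b-5p had sham values of 154, 165 and 174 and CCI-ION values of 298, 303 and 219 normalized counts. CCI-ION replicate 3 was the lowest of its group for this arm, although it was the highest for miR-148b-3p. The log2 fold change of 0.71 (standard error 0.17, 95% interval 0.30 to 1.13) missed the threshold (adjusted p = 0.0597 from limma). It passed in 4 of the 13 alternatives, among them the fit without CCI-ION replicate 3 (0.87, adjusted p = 0.0461 from limma), within a range of adjusted p from 0.0274 to 0.172.

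miR-152-5p was the scarcest member, with sham values of 27.4, 34.1 and 37.1 normalized counts that rested on 24, 41 and 44 reads. The CCI-ION values of 68.9, 58.4 and 88.3 normalized counts rested on 74, 48 and 82 reads. The groups were separate, with a log2 fold change of 1.10 (standard error 0.20, 95% interval 0.59 to 1.60, adjusted p = 0.0435 from limma). Among the fits that left out a library, the one without CCI-ION replicate 2 alone kept the call (adjusted p = 0.0373 from limma). The adjusted p from limma was 0.111, 0.144 and 0.109 without sham replicates 1, 2 and 3 and 0.0784 and 0.094 without CCI-ION replicates 1 and 3, within 0.0142 to 0.144 over the 13 alternatives.

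The order of levels was miR-148a-3p, miR-148b-3p, miR-152-3p, miR-148a-5p, miR-148b-5p and miR-152-5p in both groups, and no neighbours in this order overlapped in any group. The members are 21 to 23 bases long where the sequence is listed, so normalized counts were compared between them without a correction for length. Together they took 0.816% ± 0.0615 of all miRNA reads of the sham and 2.38% ± 0.536 of those of the CCI-ION libraries (SD, n = 3 each).

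**Figure D2:**
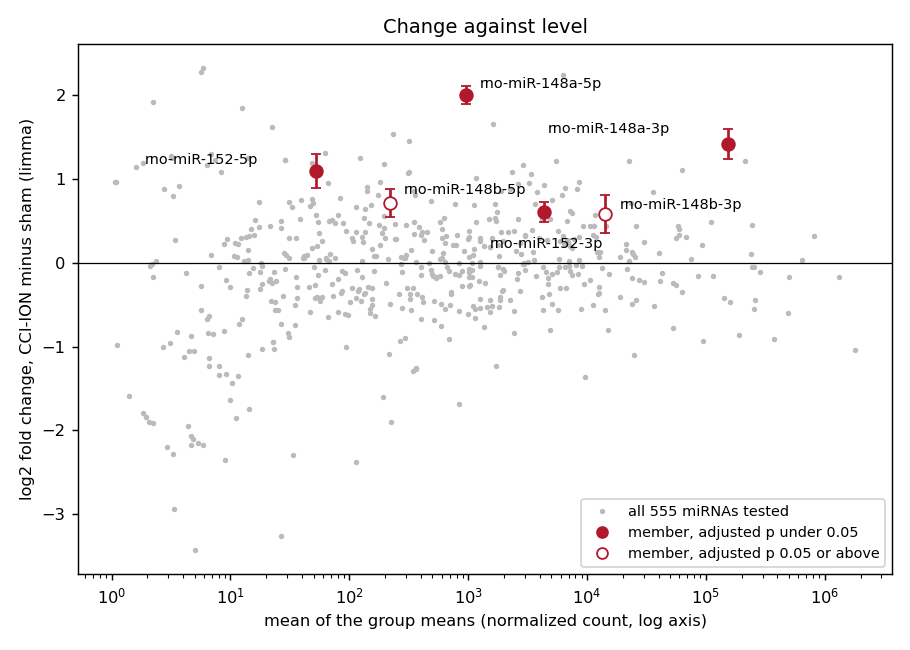
Log2 fold change from limma against the mean level on a log axis, for the 555 miRNAs tested (grey) and the 6 members (red, with bars for the standard error, filled where the adjusted p was under 0.05). The members lie from scarce (miR-152-5p) to abundant (miR-148a-3p) and have log2 fold changes between 0.58 and 2.00, all above 0.

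The scale between libraries affects the size of these changes. With total counts as the scale the middle log2 fold change over all miRNAs tested went from -0.01 to 0.17, and with upper quartiles to -0.26. Higher miRNAs were 50% of those past the threshold in the test reported, 82.4% with total counts and 10.6% with upper quartiles. The log2 fold change of every member was above 0 in each of the 13 alternatives and above the shifted median with either scaling. The smallest, that of miR-148b-3p with upper quartiles, was 0.33. With upper quartiles the calls of miR-152-3p and miR-152-5p were lost (0.36 and 0.85, adjusted p = 0.0598 and 0.0525 from limma).

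Ratios of one 3p arm to another within a library do not move with the scale between libraries. For each read of miR-148b-3p there were 7.96, 6.99 and 7.14 reads of miR-148a-3p in the sham libraries, and 14.5, 11.9 and 13.1 in the CCI-ION libraries. The CCI-ION libraries were all higher, with a difference in log2 ratio of 0.83, from 2.88 ± 0.101 to 3.71 ± 0.147 (SD, n = 3 each, exact permutation test, two-sided p = 0.1). The ratio of miR-148a-3p to miR-152-3p also separated the groups, at 23.7, 26.0 and 22.9 in sham and 38.0, 39.0 and 50.9 in CCI-ION libraries. Its log2 difference was 0.81 (exact permutation test, two-sided p = 0.1). A p of 0.1 is the smallest that 3 libraries against 3 allow, and over the 3 pairs compared it was 0.15 with Benjamini-Hochberg adjustment.

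The ratio of miR-148b-3p to miR-152-3p overlapped between the groups. The sham libraries had 2.98, 3.72 and 3.21, and the CCI-ION libraries 2.61, 3.28 and 3.90. The mean log2 ratio was 1.72 ± 0.165 for sham and 1.69 ± 0.291 for CCI-ION (SD, n = 3 each), and the difference of -0.03 was smaller than either SD (exact permutation test, two-sided p = 1, also adjusted over the 3 pairs). Its sign turned when sham replicate 2 (0.06) or CCI-ION replicate 1 (0.12) was left out.

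The 3p arms were also summed, because reads of such similar sequences could have been divided among them during counting, whose mismatch setting is not given in the sources used here. The sham sums were 100456, 99548 and 91999.6 normalized counts, and the CCI-ION sums 196266, 240273 and 302547. All CCI-ION libraries were higher, with a log2 difference of 1.32, or 2.49-fold (exact permutation test, two-sided p = 0.1, the smallest possible). miR-148a-3p provided 84.9% ± 0.62 of the sum in sham and 90.9% ± 0.677 in CCI-ION libraries (SD, n = 3 each). The share of miR-148b-3p was 11.6% ± 0.714 and 6.95% ± 0.656, and that of miR-152-3p was 3.52% ± 0.232 and 2.17% ± 0.331, so the seed was carried to a larger part by miR-148a-3p in CCI-ION libraries.

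**Figure D3:**
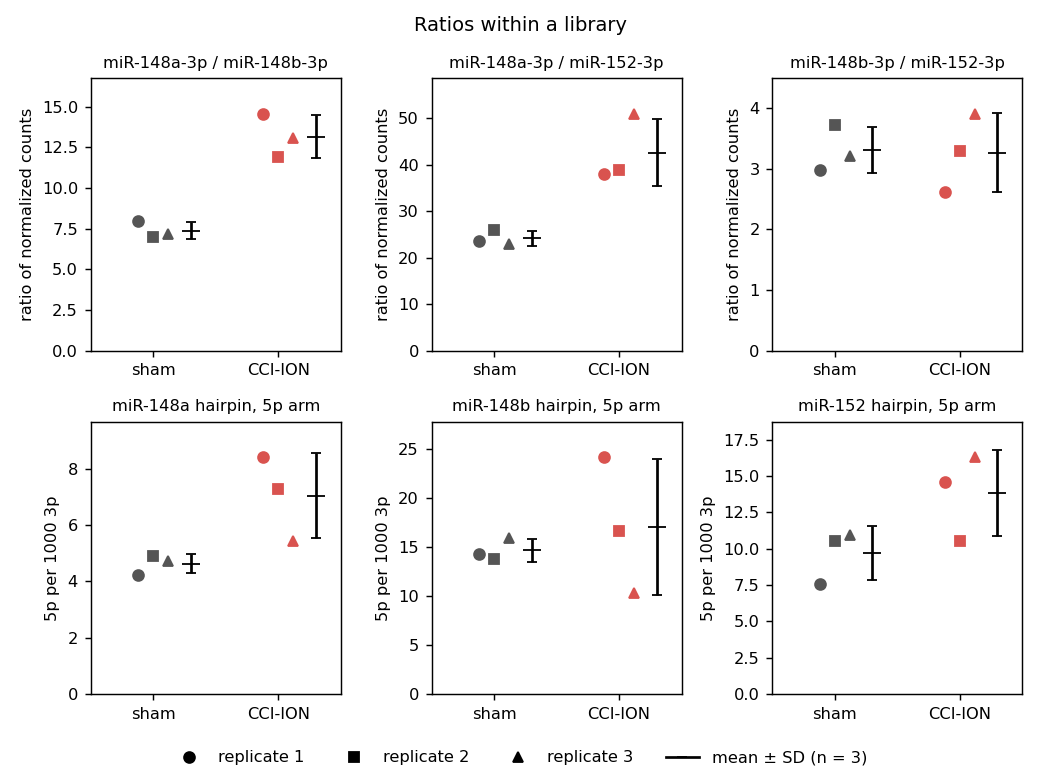
Ratios within each library on axes from 0, with points for libraries and bars for the mean ± SD of 3 libraries: pairs of 3p arms above, and 5p reads per 1000 3p reads of each hairpin below. The groups are separate for miR-148a-3p over either other 3p arm and for the miR-148a hairpin, and they overlap in the other panels.

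The 5p arm was the minor arm of all 3 hairpins. miR-148a-5p amounted to 4.24, 4.90 and 4.73 reads per 1000 reads of miR-148a-3p in the sham libraries, and to 8.40, 7.27 and 5.41 in the CCI-ION libraries. These groups did not overlap, as was so in this direction for 17.9% of the 190 hairpins with both arms. The log2 ratio of 5p to 3p differed by 0.58 (standard error 0.20, 95% interval 0.08 to 1.08), which missed the threshold over the hairpins (adjusted p = 0.127 from limma), whereas 4.21% of hairpins passed in this direction. It was between 0.44 and 0.76 without any one library, with adjusted p from 0.0504 to 0.307.

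For the miR-148b hairpin the 5p arm amounted to 14.3, 13.7 and 16.0 reads per 1000 3p reads in sham and 24.2, 16.6 and 10.3 in CCI-ION libraries. CCI-ION libraries lay on both sides of the sham range, and the log2 difference was 0.13 (95% interval -0.69 to 0.95, adjusted p = 0.824 from limma) and -0.16 without CCI-ION replicate 1. For the miR-152 hairpin the values were 7.55, 10.5 and 10.9 in sham and 14.6, 10.5 and 16.3 in CCI-ION libraries. CCI-ION replicate 2 fell within the sham range, and the log2 difference of 0.48 (95% interval -0.12 to 1.09) did not pass (adjusted p = 0.237 from limma).

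The miR-130/miR-301 family carries a seed that is shifted by 1 base from that of the 3p arms. No sequence was listed for miR-301a-3p, so it was not compared. In miR-130a-3p and miR-130b-3p the seed letters of the miR-148/miR-152 family stand at bases 1 to 7, marked by capitals. These were the 2 such miRNAs among the 512 with a sequence.
rno-miR-130a-3p: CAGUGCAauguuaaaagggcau
rno-miR-130b-3p: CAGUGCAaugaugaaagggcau

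None of the 6 listed miRNAs of the miR-130/miR-301 family passed the threshold of limma in either direction, and their median log2 fold change was -0.26. At an unadjusted p under 0.05 from limma there were 2 of the 6, miR-130b-5p (-0.55, adjusted p = 0.107) and miR-301a-5p (-0.37, adjusted p = 0.127), against 33% of all miRNAs tested. The same 2 were lower in each CCI-ION library than in any sham library, which held for 21.3% of all miRNAs tested. miR-130a-3p, the most abundant, had 462, 464 and 351 normalized counts in sham and 404, 392 and 355 in CCI-ION libraries. Its groups overlapped (log2 fold change -0.14, 95% interval -0.52 to 0.24, adjusted p = 0.551 from limma). miR-130b-3p had between 9.14 and 17.0 normalized counts in all libraries (0.15, 95% interval -0.51 to 0.81), miR-130a-5p between 9.69 and 19.5 (-0.12, 95% interval -0.87 to 0.64), and miR-301a-3p was at 12.6 or below and listed at 0 in CCI-ION replicate 2. The difference between the families was not tested.

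**Figure D4:**
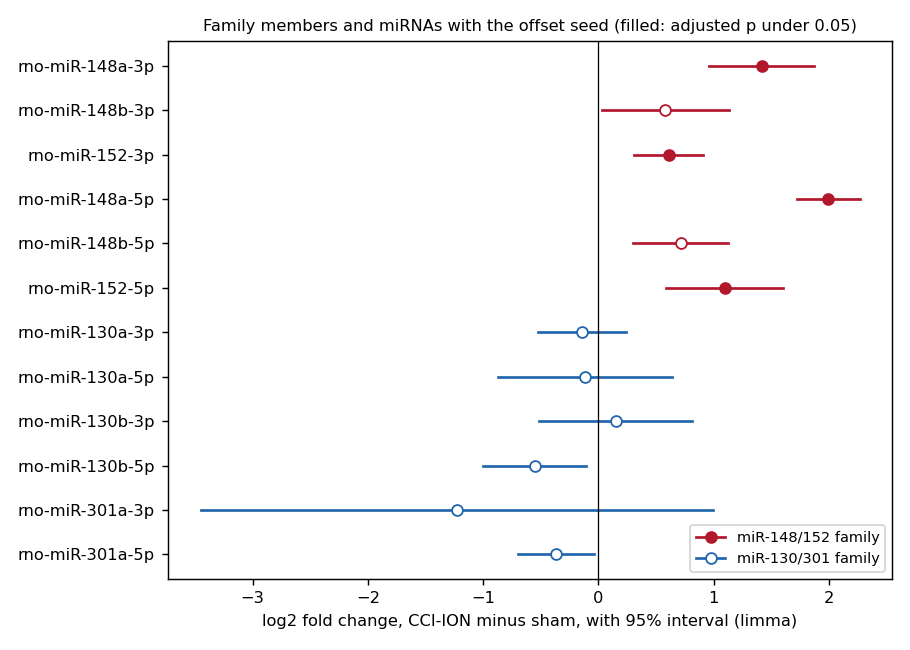
Log2 fold change with its 95% interval from limma for the 6 members of the miR-148/miR-152 family (red) and 6 miRNAs of the miR-130/miR-301 family (blue), filled where the adjusted p was under 0.05. The red intervals lie above 0, the lowest reaching 0.03, and the blue points lie between -1.23 and 0.15.

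The miRNAs of other families whose pattern over the 6 libraries was most like that of a member were found among 359 miRNAs with a mean of at least 100 normalized counts. Likeness was the root mean square difference of log2(normalized count + 1) after each miRNA was centred on its own mean, so a value of 0 is an identical pattern. Because the choice used the same 6 libraries, similar log2 fold changes of these neighbours follow from it and are no separate result. Nearest to miR-148a-3p were miR-30d-5p (0.17), miR-378a-3p (0.22) and miR-199a-5p (0.23), with log2 fold changes of 1.22, 1.21 and 1.66. To miR-148a-5p the nearest were miR-199a-5p (0.28), miR-203a-3p (0.38) and miR-30d-5p (0.41), all of which were farther off than any miRNA named here for another member. miR-203a-3p is the miRNA whose function in the ARC the study went on to examine, and it had a log2 fold change of 1.45.

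miR-152-3p had the closest neighbours, miR-30e-3p (0.066), miR-504 (0.091) and miR-100-5p (0.10). miR-30e-3p had 5551, 5452 and 5957 normalized counts in sham and 7996, 9453 and 8707 in CCI-ION libraries, a log2 fold change of 0.62 against 0.61 for miR-152-3p. Nearest to miR-152-5p were miR-24-2-5p (0.11), miR-127-5p (0.14) and miR-322-3p (0.16). miR-148b-3p lay nearest to let-7i-3p (0.14), miR-151-3p (0.16) and miR-378a-5p (0.17), none of which passed the threshold of limma. For miR-148b-5p the nearest were miR-380-5p (0.15), miR-423-3p (0.16) and miR-126a-3p (0.17). Within the family, miR-148b-3p and miR-152-3p were nearest to each other (0.19), and the arms of the miR-148a hairpin differed by 0.35.

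The reads recovered for the 562 listed miRNAs came to 8628309 to 14313839 in a library, with CCI-ION replicates 2 and 3 below every sham library. The 6 members were above 0 in all libraries. Lists of miRNAs typical of cell types were counted beside the family. Of the 5 miRNAs of vessel wall and fibroblasts, 3 passed as higher in CCI-ION rats, against 3.42% of all miRNAs tested that passed as higher. The median log2 fold change of the 5 was 1.11. Their summed level was 41158 to 57404 normalized counts in sham and 88151 to 106793 in CCI-ION libraries. Most of it was miR-143-3p, at 32179 to 47797 in sham and 77023 to 91863 in CCI-ION libraries. Among the 5, miR-199a-3p, at 0.26 on the log2 scale (adjusted p = 0.46 from limma), overlapped between the groups. All 5 were above 0 in every library. Of 5 neuronal miRNAs, 1 passed as lower, miR-124-3p, against 3.42% of all miRNAs tested that passed as lower. The 5 had a median of -0.78 and a summed level of 660728 to 885574 in sham and 527723 to 630385 in CCI-ION libraries. Most of this sum was miR-128-3p and miR-129-5p. The markers of the labelled brain tissue were thus present. These neuronal miRNAs did not all go one way. miR-129-5p, at 0.45 on the log2 scale (adjusted p = 0.0762 from limma), was higher in each CCI-ION library than in any sham library. Of 3 oligodendrocyte miRNAs, 1 passed as lower, miR-338-3p, against 3.42% of all miRNAs tested that passed as lower. The median of -1.27 was the value of miR-338-3p itself. The summed level of the 3 was 9165 to 14031 in sham and 7133 to 7612 in CCI-ION libraries, most of it miR-219a-2-3p. miR-219a-2-3p was at -0.55 (adjusted p = 0.118 from limma), and miR-219a-5p was listed at 0 in all CCI-ION libraries and 1 sham library. Of 9 miRNAs of pituitary and epithelium, 0 passed (median 0.89), at 16156 to 23034 in sham and 20070.1 to 51002 in CCI-ION libraries, with CCI-ION replicates 2 and 3 above every sham library. In the lists for endothelium (2 listed in the files), erythrocytes (2 of 3), choroid plexus and ependyma (4) and immune cells (6), 0 passed with limma, and the medians were -0.23, 0.49, 0.26 and 0.01. The endothelial median lies between arms of one hairpin with opposite signs, miR-126a-3p at 0.44 (adjusted p = 0.0877 from limma) and miR-126a-5p at -0.91 (adjusted p = 0.205 from limma), neither of which overlapped between the groups. The erythrocyte median lies between miR-451-5p at 1.07 (adjusted p = 0.0649 from limma) and miR-486 at -0.08 (adjusted p = 0.749 from limma). Immune values ran from -0.84 for miR-142-3p (adjusted p = 0.482 from limma) to 0.95 for miR-223-3p (adjusted p = 0.0597 from limma). The part of these cell types in the values of the miR-148/miR-152 family was not tested.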

How the data were processed

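Hypothalamic arcuate nucleus RNA of 3 sham and 3 CCI-ION libraries was sequenced, and samples were grouped by their titles. Per the labels, libraries were made from total RNA with an Illumina TruSeq RNA kit, and the submitters' processing notes name cutadapt 1.14, Bowtie 1.1.1 and rat build rn6. How reads were counted and normalized is not given in the sources used here. The signal value that the authors deposited for each of 562 mature miRNAs is a read count over a library size factor: 100% of values were whole multiples (tolerance 0.01) of a fixed step per library, the smallest value above 0 was worth 5 reads, and the steps matched median-of-ratios factors over 485 miRNAs above 0 in all libraries. Libraries of one group differed beyond read sampling error.

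miRNAs whose mean over the 6 libraries was 1 or more were tested with limma 3.58.1 (R 4.3.3), without covariates, on log2(normalized count + 1). Tests were two-sided and adjusted by Benjamini-Hochberg. Fold changes of scarce miRNAs are understated on this scale. Ratios of 5p to 3p were tested in the same way over 190 hairpins. Sums and ratios of 3p arms were compared by exact permutation tests. SD are between libraries. The scripts were tested on simulated data. Alternatives were total-count and upper-quartile scaling, no filter, at least 10 reads in every library, a pseudocount of 0.1, an intensity trend, the replicate number as a block, and leaving out each library. The members and lists were chosen with earlier results of these data known. Named miRNAs were the members, the rows of the miR-130 and miR-301 family and, for each member, the 3 of other families nearest in pattern, and miRNAs of the marker lists where a result turned on them. The mature sequences are those of RefSeq GRCr8, matched by name for 512 miRNAs, and genes holding a hairpin were read from the same assembly.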

Additional observations from a re-analysis of the deposited data

How the results depend on the processing

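The count tests edgeR and DESeq2 were also planned as alternatives on the recovered reads and were not run. All 6 members kept a log2 fold change above 0 in the 13 alternatives, and only miR-148a-5p passed the threshold in each. The 38 miRNAs past the threshold became 94 with upper quartiles, 96 where each library had to hold 10 reads, 88 with an intensity trend and 7 to 43 without a library, and the 4 members became 2 with upper quartiles and 1 to 4 without a library. With upper quartiles the log2 fold change of miR-152-3p was 0.36 and of miR-152-5p 0.85, neither past the threshold. miR-148b-5p passed with total counts (0.92), at least 10 reads (0.71) and the trend (0.71). Filters and the trend change which miRNAs are tested or how variances are pooled; otherwise the cause was not tested.

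With the replicate block 3 miRNAs passed, of them 1 member, and miR-148a-3p (1.42), miR-152-3p (0.61) and miR-152-5p (1.10) kept their values and no longer passed. Deviations of same-numbered libraries from their group means had correlations of -0.03, 0.19 and -0.01. Replicate 2 correlated best with its own number, and replicates 1 and 3 did not. With 3 libraries in a group these values cannot decide whether the numbers pair the libraries.

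Without a library, log2 fold changes ranged from 1.25 to 1.57 (miR-148a-3p), 1.96 to 2.06 (miR-148a-5p), 0.42 to 0.81 (miR-148b-3p), 0.63 to 0.87 (miR-148b-5p), 0.57 to 0.68 (miR-152-3p) and 0.94 to 1.23 (miR-152-5p). The sum of 3p arms ranged from 1.16 to 1.47. Signs turned for the 5p-to-3p ratio of miR-148b (-0.16 to 0.45) and for miR-148b-3p over miR-152-3p (-0.17 to 0.12), neither of which separated the groups. miR-152-5p rested on the fewest reads of the members, 24 to 82 in a library.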
